A study of Mus musculus with 12 samples.

Results

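Lymphatic endothelial cells line the vessels that drain fluid and immune cells from the lung. Their identity is set by the transcription factor PROX1, and their growth and upkeep depend on VEGF-C and VEGF-D acting through the receptor VEGFR3, which Flt4 encodes. The data below follow 6 genes of these cells in whole lung: Prox1 and Flt4; Lyve1, a hyaluronan receptor of lymphatic capillaries; Mmrn1 (multimerin 1) and Reln (reelin), 2 secreted glycoproteins; and Pdpn (podoplanin), a surface mucin. They were chosen by symbol, with earlier results of these data known. All 6 were among the 49585 genes of the count matrix and among the 18556 with enough counts to be tested. None of the 6 is exclusive to lymphatic vessels. Pdpn is abundant in type 1 alveolar cells and mesothelium, Lyve1 is carried by a subset of interstitial macrophages, and megakaryocytes and platelets can contain Mmrn1.

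Lungs came from C57BL/6J mice with MO4 melanoma cells inoculated under the skin, and polyadenylated RNA was sequenced in 12 libraries, 3 for each of 4 groups. Mice of 2 months were given anti-PD-1, an antibody that blocks a checkpoint receptor of T cells (young anti-PD-1). Mice of 22 months were given an isotype-matched rat control antibody (aged control), anti-PD-1 (aged anti-PD-1), or anti-PD-1 with an antibody to the IL-21 receptor (combination), all by intraperitoneal injection. The labels place the anti-PD-1 and control injections on days 3, 7 and 11 after inoculation and name no days for anti-IL-21R. All mice bore tumours and no young control group was measured, so age and the response to anti-PD-1 cannot be told apart in the young group alone.

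The libraries held 16021877 to 22058620 counted reads. Levels are CPM (counted reads scaled to a fixed library size) after TMM scaling, and a gene is said to be called at an adjusted p under 0.05. That p comes from the quasi-likelihood test of edgeR, with Benjamini-Hochberg adjustment across the 18556 genes. Log2 fold changes are given ± SE from 1 fit over the 12 libraries. Whether the 12 libraries stand for 12 mice is not said in the labels, and if not, the p-values reflect a spread that is partly technical. In whole tissue, fewer cells of a type and less RNA per cell cannot be told apart. Mitochondrial transcripts took 6.05 to 7.22% of the counts in young anti-PD-1, 7.32 to 10.4% in aged control, 7.88 to 11.9% in aged anti-PD-1 and 11.5 to 14.9% in combination libraries. The clock gene Per3 was at 34.1 ± 18.4 CPM in aged anti-PD-1 lungs (SD, n = 3), against 12.3 ± 2.14 in young anti-PD-1, 10.4 ± 2.66 in aged control and 9.38 ± 1.63 in combination lungs. The hour at which lungs were taken is not in the labels, and a fit with a clock gene score is given with the counts of calls further on. The part of mitochondrial transcripts in the results was not tested.

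Start regions were compared for those of the 6 genes that had a RefSeq window. RefSeq windows on GRCm38.p6, from 250 bases before to 50 after a transcript start, were found for 5 of the 6, and 4 are shown: those of 3 genes that differed between the treatment groups and that of Pdpn, which followed another course. Capitals mark matches on either strand to 7 short motifs. The letters AACAAT are a core bound by SOX factors, and AGATAA is one form of the site of GATA factors. A nuclear receptor half-site was searched as AGGTCA, and the core of ETS factor sites as CCGGAA. For the E-box the letters CACGTG were used, for the GC box GGGCGG, and for the TATA box TATAAA. The Prox1 window lies at chr1:190170778-190171077, minus strand, at the upstream of 2 RefSeq starts.
Prox1: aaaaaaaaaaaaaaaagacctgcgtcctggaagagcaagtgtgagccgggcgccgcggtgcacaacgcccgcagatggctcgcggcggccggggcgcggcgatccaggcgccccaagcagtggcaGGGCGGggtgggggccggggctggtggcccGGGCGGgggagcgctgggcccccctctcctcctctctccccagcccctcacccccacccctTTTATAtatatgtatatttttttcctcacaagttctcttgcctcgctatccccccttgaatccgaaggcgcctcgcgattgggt
The Flt4 window lies at chr11:49609429-49609728, plus strand.
Flt4: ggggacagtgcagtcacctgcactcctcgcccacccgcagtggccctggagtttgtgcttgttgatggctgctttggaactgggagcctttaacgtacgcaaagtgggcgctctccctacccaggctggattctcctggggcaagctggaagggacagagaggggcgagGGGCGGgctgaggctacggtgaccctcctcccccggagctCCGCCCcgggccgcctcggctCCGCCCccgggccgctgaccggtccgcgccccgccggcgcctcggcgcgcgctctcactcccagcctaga
The Mmrn1 window lies at chr6:60944067-60944366, plus strand, inside the longer gene model of the count table.
Mmrn1: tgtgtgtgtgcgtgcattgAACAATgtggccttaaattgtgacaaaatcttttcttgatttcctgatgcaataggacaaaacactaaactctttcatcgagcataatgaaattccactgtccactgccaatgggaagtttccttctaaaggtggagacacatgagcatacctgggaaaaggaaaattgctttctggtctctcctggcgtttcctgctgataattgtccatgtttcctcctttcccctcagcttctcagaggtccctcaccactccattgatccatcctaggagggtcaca
The Pdpn window lies at chr4:143299515-143299814, minus strand.
Pdpn: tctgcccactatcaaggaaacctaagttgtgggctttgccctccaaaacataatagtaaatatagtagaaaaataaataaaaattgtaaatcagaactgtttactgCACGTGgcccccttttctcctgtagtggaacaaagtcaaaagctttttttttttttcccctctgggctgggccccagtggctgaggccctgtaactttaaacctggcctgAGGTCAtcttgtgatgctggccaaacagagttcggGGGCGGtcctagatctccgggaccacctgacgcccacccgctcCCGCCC
A TATA box match, read on the opposite strand (TTTATA), lay in the Prox1 window shown (13.6% of all windows hold 1 on either strand). GC boxes occurred 2 times in the Prox1 window, 3 times in that of Flt4, 2 times in that of Pdpn and 0 times in that of Mmrn1, and 35.7% of all 32851 windows of this length hold at least 1. The Prox1 and Flt4 windows were 64.3% and 70.3% G or C, those of Mmrn1 and Pdpn 44.3% and 48.7%, and the median over all windows was 52.7%. The Reln window, not shown, was 80.7% G or C and held 6 GC boxes, 1 ETS core and 1 E-box. The window at the other Prox1 start, also not shown, was 57.3% G or C and held 1 GC box and 0 TATA boxes. The only SOX core lay in the Mmrn1 window (10.7% of all windows hold 1), and the only nuclear receptor half-site and E-box among the 4 lay in that of Pdpn (16.3% and 7.15% of all windows). These are letter matches in short windows and describe no binding.

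Levels per kilobase of annotated exon allow the genes to be ranked, here in the young anti-PD-1 lungs. Pdpn was at 118 ± 11.6 CPM per kilobase (SD, n = 3) and Lyve1 at 52.0 ± 5.16. Mmrn1 followed at 3.62 ± 0.694 and Flt4 at 1.95 ± 0.258. Prox1 (0.211 ± 0.0190) and Reln (0.181 ± 0.0585) were lowest and did not differ beyond their spread. Each length joins all annotated exons of a gene (23738 bases for Reln, 8390 for Prox1). It is not that of 1 transcript, so the order of genes close in level depends on the length used. In aged anti-PD-1 lungs Lyve1 stood above Pdpn, at 92.9 ± 7.47 against 67.5 ± 17.5 CPM per kilobase. The Prox1 levels rest on 23 to 157 reads per library and those of Reln on 67 to 266, so both are less precise than the rest, whose counts per library ran from 204 upwards. Prox1 overlaps its antisense gene Prox1os in exons, and Reln overlaps Gm10475. The strand setting of the counting is not given in the sources used here, so reads of such partners cannot be told apart.

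3 courses over the groups were seen. Lyve1, Prox1 and Flt4 were high in aged anti-PD-1 lungs and close to the young level in the other aged lungs. Mmrn1 and Reln were higher in all aged groups than in young anti-PD-1 lungs by their means. Prox1 met this too, but by little in aged control (2.11 CPM) and combination lungs (1.79), against 1.77 in young lungs. Reln was also highest in aged anti-PD-1 lungs (10.95 CPM against 7.04 in aged control and 6.61 in combination lungs), as in the first course. The split is thus a description and not a sharp one. Pdpn was highest in young anti-PD-1 lungs.

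**Figure D1:**
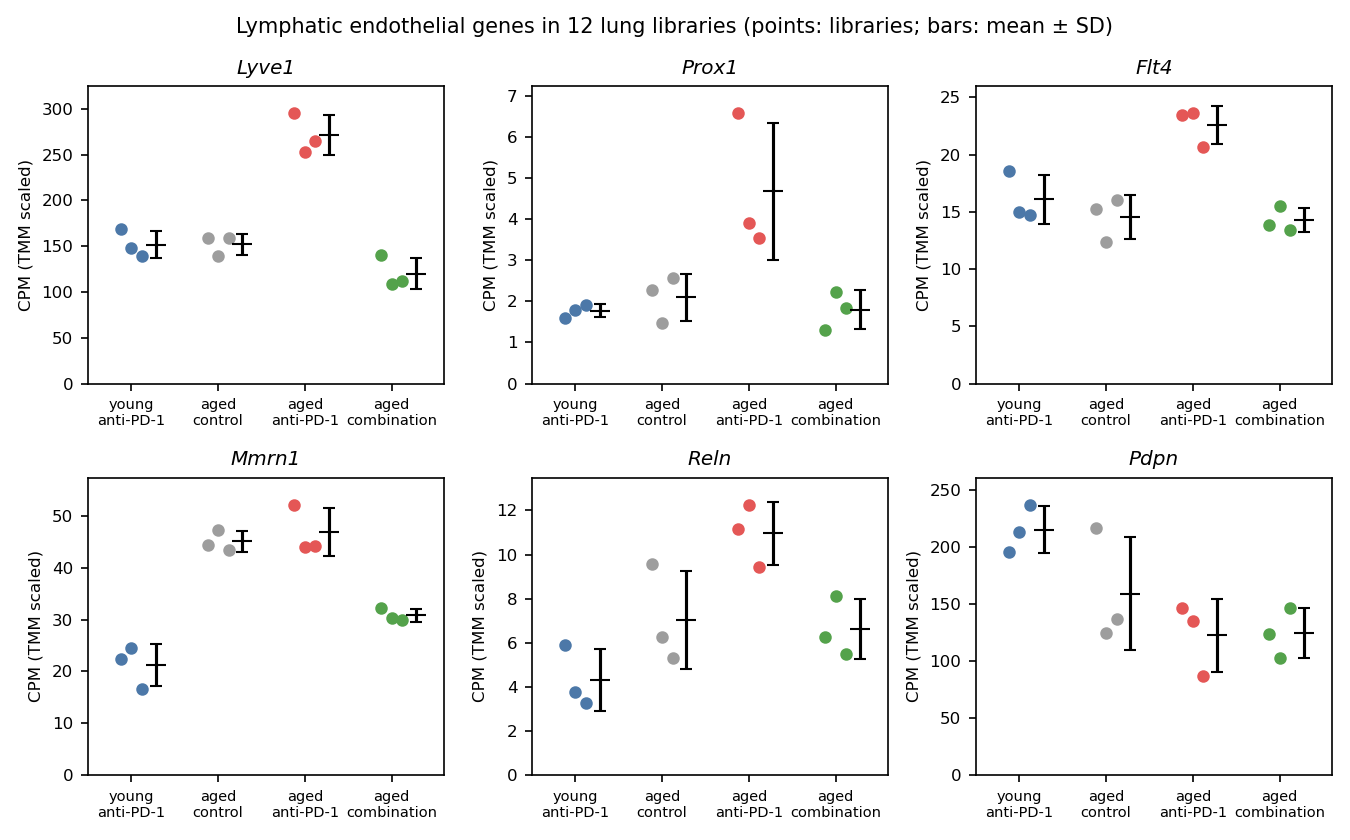
CPM of the 6 lymphatic endothelial genes (vertical axes, TMM scaled) in each of the 12 libraries (points) by group, with the mean and SD of 3 libraries beside them. All 3 aged anti-PD-1 libraries lie above the other 9 for Lyve1 (lowest 253 CPM), Prox1 (3.54) and Flt4 (20.7), whereas for Mmrn1 all 9 aged libraries lie above the 3 young ones.

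Lyve1 (ENSMUSG00000030787, chromosome 7, 110850607 to 110863239, mm10, minus strand) was the most precisely measured of the first course. It stood at 168, 148 and 139 CPM in the 3 young anti-PD-1 libraries and at 159, 139 and 159 in the aged control libraries. Aged anti-PD-1 libraries had 295, 253 and 265 CPM, and combination libraries 140, 108 and 112. The aged anti-PD-1 libraries were thus apart from all others, while young and aged control lungs overlapped almost fully (151.7 ± 15.1 and 152 ± 11.4 CPM; SD, n = 3). Lyve1 rose by 0.84 ± 0.12 in aged against young anti-PD-1 lungs (1.79-fold, edgeR adjusted p 0.000971). Against aged control lungs it rose by 0.83 ± 0.12 (1.78-fold, edgeR adjusted p 0.00407). With anti-IL-21R added it fell by 1.17 ± 0.12 (edgeR adjusted p 0.000471), to 0.443 times the aged anti-PD-1 level. The difference between combination and aged control lungs (-0.34 ± 0.12, edgeR adjusted p 0.591) was not called. The first 3 of these calls held in each of the 6 fits that left out 1 library of the groups compared.

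Prox1, the regulator that specifies lymphatic fate (ENSMUSG00000010175, chromosome 1, 190118035 to 190170714, minus strand; promoter window above), followed the same order at a low level. Its counts were 35, 36 and 39 in young anti-PD-1, 44, 26 and 48 in aged control, 157, 78 and 71 in aged anti-PD-1 and 23, 35 and 28 in combination libraries. In CPM these were 1.77 ± 0.159, 2.11 ± 0.571, 4.69 ± 1.66 and 1.79 ± 0.475 (SD, n = 3), and the aged anti-PD-1 libraries did not overlap with any other group. The first aged anti-PD-1 library was the highest, at 6.59 CPM against 3.92 and 3.54 in the other two. Prox1 rose by 1.41 ± 0.30 against young anti-PD-1 (edgeR adjusted p 0.00765) and by 1.15 ± 0.30 against aged control lungs (edgeR adjusted p 0.0267), and fell by 1.39 ± 0.30 when anti-IL-21R was added (edgeR adjusted p 0.0161). When that library was left out, the change against control was 0.82 ± 0.30 (edgeR adjusted p 0.115) and that with anti-IL-21R -1.06 ± 0.30 (edgeR adjusted p 0.0716), so neither was called. The call against control was also lost without the second control library (edgeR adjusted p 0.0967) and in a fit of those 2 groups alone (edgeR adjusted p 0.0694).

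Flt4 (ENSMUSG00000020357, chromosome 11, 49609263 to 49652739, plus strand; promoter window above) changed least of the first course. It stood at 18.5, 14.96 and 14.8 CPM in young anti-PD-1, 15.3, 12.4 and 16.03 in aged control, 23.4, 23.6 and 20.7 in aged anti-PD-1 and 13.9, 15.5 and 13.5 in combination libraries. Only the aged anti-PD-1 libraries stood apart, and the other 3 groups overlapped one another. The change was 0.63 ± 0.13 against aged control lungs (1.55-fold, edgeR adjusted p 0.0134), 0.49 ± 0.13 against young anti-PD-1 lungs (1.40-fold, edgeR adjusted p 0.0255) and -0.66 ± 0.14 when anti-IL-21R was added (edgeR adjusted p 0.0127). The call against young lungs was lost without the second (edgeR adjusted p 0.102) or the third young (0.0933) or the first (0.0690) or second (0.0774) aged anti-PD-1 library. That against control was lost without the second control library (edgeR adjusted p 0.0590), and the call with anti-IL-21R held in all 6 such fits.

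Mmrn1, a large glycoprotein stored in platelets and endothelium that also marks lymphatic endothelium (ENSMUSG00000054641, chromosome 6, 60924976 to 60989378, plus strand), led the second course. It stood at 22.5, 24.5 and 16.7 CPM in young anti-PD-1 and at 44.5, 47.4 and 43.6 in aged control libraries. Aged anti-PD-1 libraries had 52.2, 44.1 and 44.3 CPM and combination libraries 32.2, 30.3 and 30.0. The young libraries were lowest, the combination libraries lay between, and the aged control and aged anti-PD-1 libraries overlapped. It rose by 1.14 ± 0.13 in aged against young anti-PD-1 lungs (2.21-fold, edgeR adjusted p 0.000311), a call kept in all 6 fits with 1 library left out. Anti-PD-1 against control gave 0.06 ± 0.13 (edgeR adjusted p 0.809). Once anti-IL-21R was added, it fell by 0.60 ± 0.13 (edgeR adjusted p 0.0141), a call lost without the first aged anti-PD-1 (edgeR adjusted p 0.0585) or the second combination library (0.0648). The combination libraries also lay below all 3 control libraries (-0.55 ± 0.13), which edgeR did not call (adjusted p 0.334) and DESeq2 did (adjusted p 0.0349).

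Reln (ENSMUSG00000042453, chromosome 5, 21884454 to 22344702, minus strand), best known as a guidance protein of the brain and also secreted by lymphatic endothelium, varied more within groups. Its levels were 5.89, 3.75 and 3.28 CPM in young anti-PD-1, 9.56, 6.26 and 5.29 in aged control, 11.2, 12.3 and 9.43 in aged anti-PD-1 and 6.24, 8.12 and 5.47 in combination libraries. Aged anti-PD-1 libraries lay above the young and combination libraries, but overlapped with the control libraries, of which the first was high. Reln rose by 1.34 ± 0.26 in aged against young anti-PD-1 lungs (2.53-fold, edgeR adjusted p 0.00439), and this held in all 6 fits with 1 library left out. The differences against control (0.64 ± 0.25, edgeR adjusted p 0.109) and when anti-IL-21R was added (-0.73 ± 0.25, edgeR adjusted p 0.0822) were not called. Without the first control library the former was called (0.92 ± 0.25, edgeR adjusted p 0.0289). The latter was called by DESeq2 (adjusted p 0.0455), and by edgeR with library totals (adjusted p 0.0249), in a fit of those 2 groups alone (0.0410) and with a replicate block (0.0491).

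Pdpn, which binds CLEC-2 on platelets and keeps blood and lymph vessels apart in development (ENSMUSG00000028583, chromosome 4, 143267431 to 143299564, minus strand; promoter window above), went the other way. It stood at 195, 213 and 237 CPM in young anti-PD-1, 216, 124 and 137 in aged control, 147, 135 and 86.5 in aged anti-PD-1 and 123, 103 and 147 in combination libraries. Young libraries lay above those of aged anti-PD-1 and combination lungs, but the first control library was within the young range. Pdpn fell by 0.81 ± 0.22 in aged against young anti-PD-1 lungs (edgeR adjusted p 0.0292). The call was lost without young library 2 (edgeR adjusted p 0.0754) or 3 (0.118), without aged anti-PD-1 library 2 (0.0508) or 3 (0.107), and with no filter on low counts (0.103). It was not called for anti-PD-1 against control (-0.38 ± 0.22, edgeR adjusted p 0.284), added anti-IL-21R (0.02 ± 0.22, 0.966) or combination against control (-0.36 ± 0.22, 0.844).

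**Figure D2:**
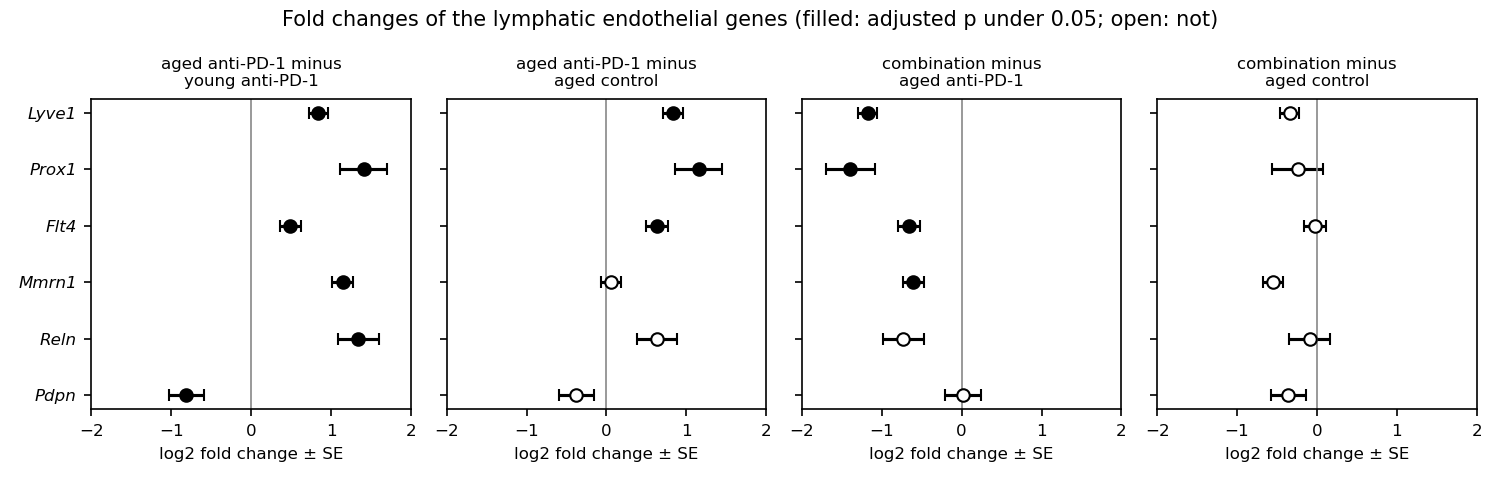
Log2 fold changes ± SE (horizontal axes) of the 6 genes in the 4 comparisons between groups (panels), with filled points for an edgeR adjusted p under 0.05. In the first panel 5 genes lie to the right of 0 and Pdpn to the left (-0.81), and the last panel has no filled point.

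Counted over the comparisons, 5 of the 6 genes rose and 1 fell in aged against young anti-PD-1 lungs, where 8.09% of all genes tested were called higher and 7.16% lower. The median log2 fold change was 0.99 over the 6 genes and -0.01 over all genes tested. With anti-PD-1 against control, Lyve1, Prox1 and Flt4 rose and 0 fell (5.34% of all genes were called higher and 5.58% lower, median 0.64 against -0.02). With anti-IL-21R added, Lyve1, Prox1, Flt4 and Mmrn1 fell and 0 rose (4.35% of all genes were called lower and 4.67% higher, median -0.70 against -0.01). Between combination and control edgeR called 0 of the 6 and 0% of all genes (smallest adjusted p 0.245). That is 0 of 18556 genes, although 1228 had an unadjusted p under 0.05 and DESeq2 called 76. Libraries of the groups did not overlap for 5 members higher and 1 lower in aged against young anti-PD-1 lungs, where this held for 19.7% and 19.9% of all genes tested. Against control it held for 3 higher and 0 lower (16.1% and 16.4% of all genes). With added anti-IL-21R it held for 5 lower, Reln included, and 0 higher (16.5% and 15.7%). For combination against control it held for Mmrn1, lower, and for 0 higher (5.78% and 3.92%). The comparisons share the aged anti-PD-1 or the control libraries, so their directions are not independent of one another. Since the 6 genes were chosen with earlier results of these data known, the counts describe them and are no test of the set. When a score of clock genes was added as a covariate, chosen after seeing the data, Lyve1 stayed called in the first 3 comparisons (edgeR adjusted p 0.0456, 0.0344 and 0.00397) and Mmrn1 in aged against young lungs (0.0166). No other member was called in these 3 comparisons, but the changes called without the covariate kept their direction, with larger SEs. Against young lungs Prox1 then had 1.91 ± 0.45 (edgeR adjusted p 0.113), Flt4 0.44 ± 0.24 (0.444), Reln 1.19 ± 0.43 (0.261) and Pdpn -0.74 ± 0.40 (0.454). Against control Prox1 had 1.47 ± 0.36 (edgeR adjusted p 0.0918) and Flt4 0.60 ± 0.19 (0.137). On adding anti-IL-21R, Prox1 had -1.70 ± 0.36 (edgeR adjusted p 0.0564), Flt4 -0.63 ± 0.19 (0.119) and Mmrn1 -0.78 ± 0.16 (0.0514). Over all genes that covariate left 52, 79 and 124 calls of 2830, 2025 and 1674. The score ran from -0.847 to -0.556 in young anti-PD-1 and from -1.37 to -1.25 in aged control libraries. In aged anti-PD-1 libraries it ran from -3.45 to -1.49, apart from both, and in combination libraries from -1.58 to -1.03. Score and group are thus partly confounded, and the lost calls cannot be assigned to either.

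The mean of the 3 aged groups was also set against young anti-PD-1 lungs, a contrast in which treatments differ as well as age. The courses were read from the same group means, so the contrast is no independent test of them. Mmrn1 (0.92 ± 0.11, edgeR adjusted p 0.00018) and Reln (0.89 ± 0.22, edgeR adjusted p 0.0139) rose and Pdpn fell by 0.68 ± 0.18 (edgeR adjusted p 0.0189). In this contrast 8% of all genes were called higher and 7.54% lower. Lyve1 (0.17 ± 0.10, edgeR adjusted p 0.292), Prox1 (0.56 ± 0.26, 0.172) and Flt4 (0.06 ± 0.11, 0.787) were not called. All 9 aged libraries lay above the 3 young ones for Mmrn1, and for 0 members below them, as they did for 5.5% and 5.53% of all genes. Mmrn1 was called in all 12 fits with 1 library left out. Reln was lost without the second (edgeR adjusted p 0.0863) or the third young library (0.0896), and so was Pdpn (0.0745 and 0.118).

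Genes shared by blood and lymphatic endothelium moved with Lyve1, Prox1 and Flt4 in 2 of the comparisons. Of 6 such markers 5 rose with anti-PD-1 against control (median 0.72), among them the junction genes Pecam1 (0.73 ± 0.14, edgeR adjusted p 0.00857) and Cdh5 (0.72 ± 0.18, edgeR adjusted p 0.0273), and 3 fell with added anti-IL-21R (median -0.68). None of the 6 was called in aged against young anti-PD-1 lungs (median 0.35). Their summed level ran from 1484 to 1811 CPM in young anti-PD-1, 964 to 1641 in aged control, 1738 to 2161 in aged anti-PD-1 and 1086 to 1507 in combination libraries. Among 13 blood endothelial markers, 2 of them also in the first list, 4 rose and 1 fell with anti-PD-1 against control, and 5 fell and 1 rose with added anti-IL-21R. In aged against young lungs 1 of the 13 rose and 2 fell. The part of endothelium at large in the lymphatic genes was not tested beyond the ratios that follow.

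Set against that sum within each library, a measure free of the scaling between libraries, Flt4 came to 1.01 ± 0.0196% in young anti-PD-1, 1.18 ± 0.214% in aged control, 1.17 ± 0.0769% in aged anti-PD-1 and 1.17 ± 0.220% in combination lungs (SD, n = 3). The 3 aged groups thus overlapped in this ratio. Lyve1 came to 9.51 ± 0.396%, 12.4 ± 2.46%, 14.0 ± 1.04% and 9.67 ± 0.569% in the same order, so that the aged anti-PD-1 libraries (13.2 to 15.2%) still lay above the combination libraries (9.28 to 10.3%) but overlapped with the control libraries (9.66 to 14.4%). Prox1 was at 0.112 ± 0.0212%, 0.167 ± 0.0380%, 0.238 ± 0.0583% and 0.1501 ± 0.0570%, and again aged anti-PD-1 overlapped with control but not with combination lungs. The aged anti-PD-1 libraries lay above the young ones for Lyve1 (young 9.27 to 9.96%), Prox1 (0.204 to 0.305% against 0.0882 to 0.128%) and Flt4 (1.08 to 1.23% against 0.985 to 1.02%). For Mmrn1 and Reln all 9 aged libraries did. Mmrn1 stood at 1.11 to 1.65% in young and 2.14 to 4.92% in the 9 aged libraries, Reln at 0.219 to 0.325% and 0.414 to 0.706%. The difference of Mmrn1 between aged anti-PD-1 (2.42 ± 0.123%) and combination lungs (2.51 ± 0.330%) was within the spread. All 3 aged control libraries (2.71, 4.92 and 3.58%) lay above the 3 of aged anti-PD-1 (2.42, 2.30 and 2.55%) in this ratio, whereas in CPM these groups overlapped. Pdpn was lowest in aged anti-PD-1 lungs, at 6.27 ± 1.13%.

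**Figure D3:**
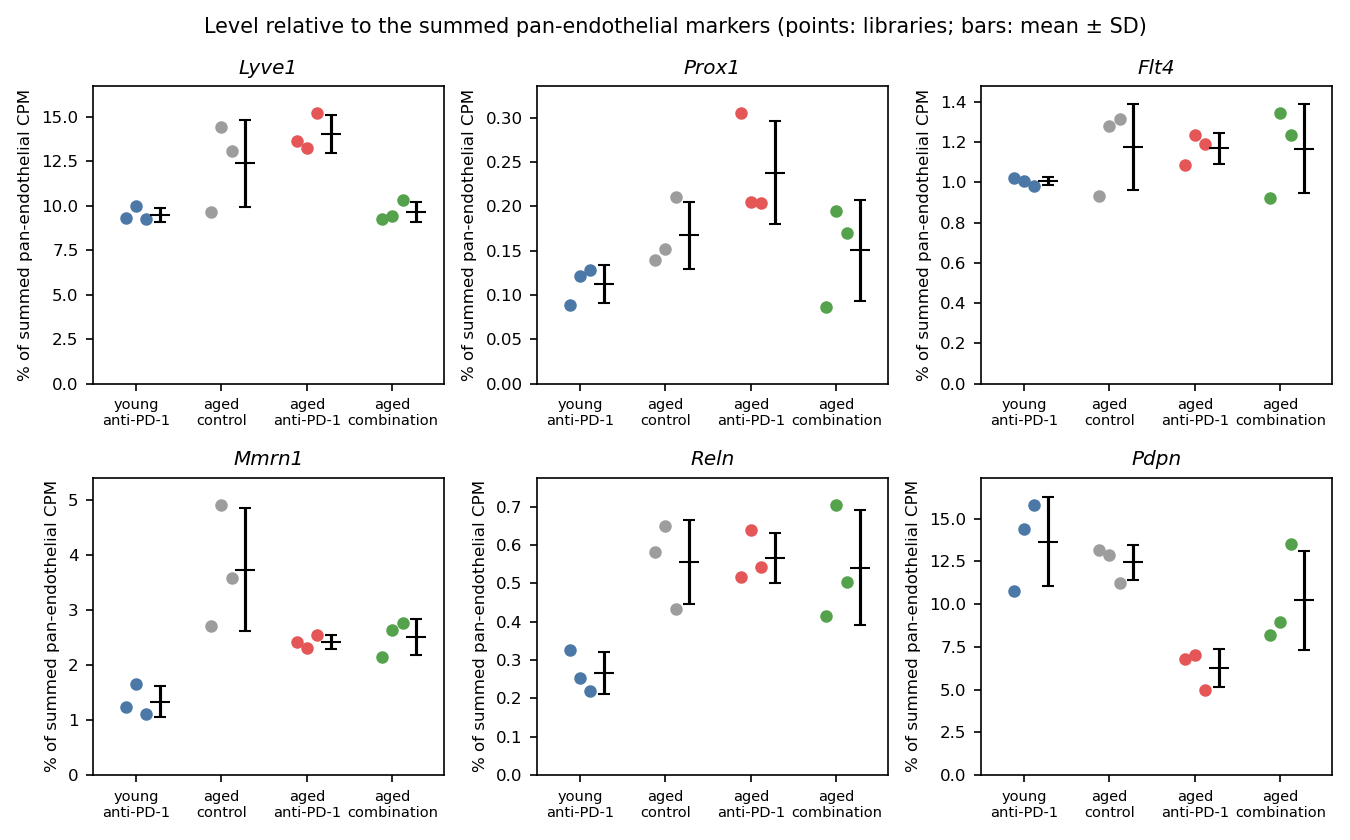
Level of each of the 6 genes as a percentage of the summed CPM of 6 pan-endothelial markers (vertical axes) in each library (points) by group, with mean and SD of 3 libraries. Flt4 is near 1.2% in the 3 aged groups, and for Mmrn1 and Reln all 9 aged libraries lie above the 3 young ones.

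Lymphatic growth factors and their receptors came next, in a list that also holds the angiopoietins and their receptors. Of 12 listed genes 11 were tested, since Adamts3, a protease that helps to activate VEGF-C, had 2 to 12 reads per library. Tie1 is in this list and among the 6 pan-endothelial markers, so it counts in both. With anti-PD-1 against control 5 of 11 rose and 0 fell (median 0.56). These were receptors and their partners: Ptprb, a phosphatase of endothelial receptors (0.91 ± 0.17, edgeR adjusted p 0.00788), the angiopoietin receptor Tek (0.83 ± 0.22, 0.0306), its relative Tie1 (0.80 ± 0.21, 0.0321), Kdr, which encodes VEGFR2 (0.60 ± 0.15, 0.0261), and the co-receptor Nrp2 (0.43 ± 0.12, 0.0407). With added anti-IL-21R 6 of 11 fell and 0 rose (median -0.49), and they included the ligand Vegfc (-0.72 ± 0.19, edgeR adjusted p 0.0321). Vegfc stood at 15.3 ± 2.42 CPM in young anti-PD-1, 16.4 ± 3.84 in aged control, 18.9 ± 2.83 in aged anti-PD-1 and 11.5 ± 1.89 in combination lungs (SD, n = 3). In aged against young anti-PD-1 lungs 3 of 11 rose, including the ligand Vegfd (0.50 ± 0.16, edgeR adjusted p 0.0429) and Ccbe1, a cofactor of VEGF-C processing (0.94 ± 0.23, 0.0152). The integrin subunit Itga9, which serves lymphatic valves, fell (-0.73 ± 0.15, edgeR adjusted p 0.00741).

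The other transcription factors of lymphatic fate and valves form a list of 11. With anti-PD-1 against control 2 of 11 rose: Sox18, which switches on Prox1 in the embryo (1.28 ± 0.27, edgeR adjusted p 0.0161), and Gata2, a regulator of lymphatic valves (0.53 ± 0.14, 0.0310). Sox18 stood at 44.4 ± 21.4 CPM in young anti-PD-1, 28.02 ± 4.37 in aged control, 67.8 ± 14.3 in aged anti-PD-1 and 36.1 ± 5.002 in combination lungs (SD, n = 3). None of the 11 was called with added anti-IL-21R, where Sox18 had -0.91 ± 0.27 (edgeR adjusted p 0.0555) and Hhex 0.41 ± 0.13 (0.0611). In aged against young lungs Gata2 (0.76 ± 0.14, edgeR adjusted p 0.00413), the flow-responsive factor Klf2 (1.02 ± 0.23, 0.0110) and Maf (0.91 ± 0.14, 0.00134) rose. T cells and macrophages also express Maf.

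Of 11 further lymphatic markers 10 were tested. Ackr2, a decoy receptor by which lymphatic endothelium removes inflammatory chemokines, had the course of Lyve1. It stood at 14.1 ± 3.40 CPM in young anti-PD-1, 13.3 ± 4.98 in aged control, 32.2 ± 7.13 in aged anti-PD-1 and 13.6 ± 1.11 in combination lungs (SD, n = 3). It rose against young (1.19 ± 0.25, edgeR adjusted p 0.00722) and control lungs (1.28 ± 0.25, 0.00990) and fell with added anti-IL-21R (-1.24 ± 0.25, 0.0126). Fxyd6, a regulator of the sodium pump, went against it, with -0.76 ± 0.15 against control (edgeR adjusted p 0.00904) and 0.62 ± 0.15 with added anti-IL-21R (0.0229). The mechanically gated channel Piezo2 rose against control (0.92 ± 0.22, edgeR adjusted p 0.0203) and Thy1 in aged against young lungs (0.66 ± 0.21, 0.0448). The list as a whole had 2 higher and 0 lower against young, 2 and 1 against control, and 1 and 1 with added anti-IL-21R, with medians of 0.24, -0.18 and -0.02. Ccl21a, the chemokine of lymphatic endothelium that guides dendritic cells, had 0 reads in 10 of 12 libraries and 1 and 2 in the others. It has near-identical copies among which reads are shared, so its count is uncertain.

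**Figure D4:**
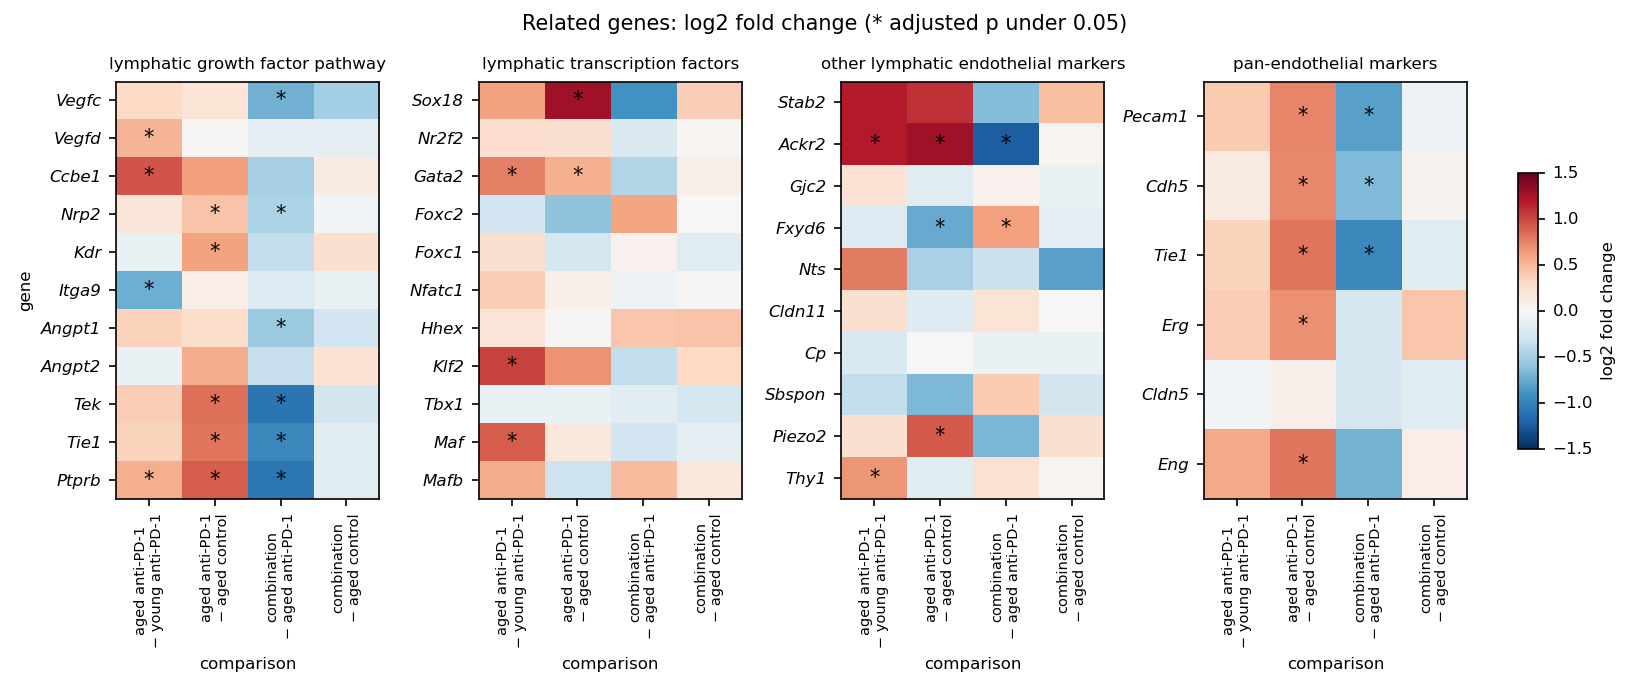
Log2 fold changes (colour, red higher and blue lower, limited to ± 1.5) of 4 lists of genes (rows) in the 4 comparisons (columns). A star marks an edgeR adjusted p under 0.05. The lists are the lymphatic growth factor pathway (angiopoietin genes included), lymphatic transcription factors, further lymphatic markers and pan-endothelial markers. The second column holds 5 stars for the pathway and 5 for the pan-endothelial genes, with Tie1 in both, and the last column holds none.

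Binding partners of the members were looked at in the same way. The reelin receptors Vldlr and Lrp8 and the adaptor Dab1 had 0 of 3 called in every one of the 4 comparisons, where Dab1 had -1.38 ± 0.66 (edgeR adjusted p 0.183) and Lrp8 -0.57 ± 0.28 (0.197) against control. Among 8 tested genes of hyaluronan, the ligand of LYVE1, the synthase Has1 fell against control (-1.67 ± 0.28, edgeR adjusted p 0.00614) and rose with added anti-IL-21R (1.33 ± 0.28, 0.0152). The hyaluronidase Hyal1 rose against control (1.502 ± 0.32, edgeR adjusted p 0.0133) and Hyal2 fell with added anti-IL-21R (-0.77 ± 0.20, 0.0317). Clec1b, the platelet gene for CLEC-2, rose in aged against young lungs (1.70 ± 0.19, edgeR adjusted p 0.000311), where Pdpn fell. The podoplanin-binding linker Ezr fell there as well (-0.63 ± 0.17, edgeR adjusted p 0.0210) and against control (-0.67 ± 0.17, 0.0241).

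Markers of other cells that contain the same transcripts moved with several of these results. Of 10 markers of Lyve1-positive interstitial macrophages 7 rose in aged against young lungs (median 1.34), 2 rose against control (0.67) and 4 fell with added anti-IL-21R (-1.04). The scavenger receptor Cd163 was at 2.41 ± 0.485 CPM in young anti-PD-1, 4.54 ± 1.71 in aged control, 8.56 ± 1.24 in aged anti-PD-1 and 2.81 ± 0.528 in combination lungs (SD, n = 3). The folate receptor Folr2 was at 4.28 ± 0.871, 4.19 ± 1.12, 7.14 ± 1.37 and 2.41 ± 0.707 CPM in the same order, and Lyve1 itself was at 108 to 295 CPM. Not all of the list had this course. F13a1 was highest in aged control lungs (35.3 ± 2.57, 91.4 ± 13.6, 72.8 ± 10.1 and 69.0 ± 7.11 CPM in that order). Cbr2 was at 2857 ± 273, 2843 ± 197, 2562 ± 389 and 2213 ± 420 CPM. The sum of the list ran from 2725 to 3234 CPM in young anti-PD-1, 2884 to 3332 in aged control, 2745 to 3304 in aged anti-PD-1 and 2014 to 2769 in combination libraries. Most of it was Cbr2, which airway epithelium also expresses (2213 to 2857 CPM as group means). No marker of the list was at 0 in any library, and the part of macrophages in the Lyve1 values was not tested.

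Platelet and megakaryocyte markers other than Mmrn1 rose in 9 of 9 cases in aged against young lungs. Their summed level was 205 to 396 CPM in young anti-PD-1, 1515 to 1986 in aged control, 1050 to 1137 in aged anti-PD-1 and 777 to 1325 in combination libraries. Against control 2 of these 9 fell. When anti-IL-21R was added, 0 of the 9 was called, while Mmrn1 fell. Platelet factor 4, Pf4, was at 177 ± 11.2 CPM in aged anti-PD-1 and 175 ± 41.2 in combination lungs (SD, n = 3). The part of platelets in the age difference of Mmrn1 was not tested, and none of the 9 markers was at 0.

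Type 1 alveolar and mesothelial markers fell with Pdpn in aged against young anti-PD-1 lungs, but mesothelial markers also fell against control, where Pdpn was not called. Type 1 alveolar markers fell in 6 of 9 cases in aged against young lungs (median -1.01), among them the receptor gene Ager, the factor Hopx and the water channel Aqp5. None of the 9 was called in the other comparisons between groups (medians -0.41, 0.10 and -0.25). Their sum was 8395 to 10124 CPM in young anti-PD-1, 4147 to 9735 in aged control, 3373 to 5474 in aged anti-PD-1 and 4487 to 5704 in combination libraries, and the first control library was high in Ager (4559 CPM) as it was in Pdpn. Mesothelial markers fell in 7 of 7 cases both against young and against control lungs (medians -1.44 and -1.52), with sums of 675 to 699 CPM, 577 to 648, 282 to 373 and 379 to 418 in the order of the groups. On adding anti-IL-21R 0 of the 7 was called (median 0.49). None of these markers was at 0, and the part of these cells in the Pdpn values was not tested.

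For Prox1, which heart muscle and neuroendocrine cells can express, cardiac markers had 0 of 7 and neuroendocrine markers 0 of 4 called against control and with added anti-IL-21R. In aged against young anti-PD-1 lungs 1 of 7 cardiac markers was called higher, and of 4 neuroendocrine markers 1 higher and 1 lower. The part of these cells in the Prox1 values was not tested. Cardiac sums ran from 442 to 703 CPM in young anti-PD-1, 656 to 1199.6 in aged control, 535 to 896 in aged anti-PD-1 and 513 to 732 in combination libraries. Neuroendocrine sums were 7.53 to 15.03 CPM over the 12 libraries, with Chga at 0 in 1 control library. Lymphoid stroma, which can carry Pdpn, had 3 of 6 listed genes tested. In aged against young anti-PD-1 lungs, where Pdpn fell, 2 of these 3 were called higher and 0 lower (median 0.82). The chemokine Cxcl13 rose against control (1.72 ± 0.35, edgeR adjusted p 0.0136) and fell with added anti-IL-21R (-1.70 ± 0.35, 0.0157). The other tested genes of that list, Il7 and Tnfsf11, were called in neither of these comparisons: Il7 was at 4.04 ± 0.247 CPM in aged control, 3.94 ± 0.230 in aged anti-PD-1 and 4.69 ± 0.696 in combination lungs (SD, n = 3), and Tnfsf11 at 0.670 ± 0.219, 0.745 ± 0.183 and 0.856 ± 0.221. Of the untested genes, Madcam1 had 0 reads in at least 1 library of each group and Ccl19 in at least 1 of each group but the combination.

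The genes closest in course to each member were found by Pearson correlation of log2 CPM over the 12 libraries, among genes with a mean log2 CPM of at least 0. These values describe likeness only, since group differences and library composition are shared by all points. Each nearest gene is also the highest of many searched over only 12 libraries, so a high r alone shows no link. The same holds for the values within groups given below. Nearest to Lyve1 were Stab1, a scavenger receptor of macrophages and lymphatic endothelium (r = 0.971), the Notch ligand gene Jag2 (0.968) and the corepressor Cbfa2t3 (0.968). Stab1 stood at 39.3 ± 7.19 CPM in young anti-PD-1, 36.6 ± 5.47 in aged control, 62.8 ± 4.82 in aged anti-PD-1 and 31.2 ± 1.84 in combination lungs (SD, n = 3). Flt4 was nearest to the transcription factor Sox13 (0.962), Shank3 and Cdan1 (both 0.958), and Prox1 to Fbxl18 (0.907), Ddb2 (0.904) and Wdfy1 (0.892). For Mmrn1 they were the calcium pump gene Atp2a3 (0.945), Dlgap4 (0.933) and Clca3a1 (0.927), and for Reln the laminin chain Lamc3 (0.930), Itpripl1 (0.925) and Gata2 (0.903). Pdpn was nearest to Scnn1g, a subunit of the epithelial sodium channel (0.987), Gprc5a (0.987) and Fads3 (0.985).

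Within groups the picture was different for most members. When group means were removed, Pdpn kept the same 3 genes, Scnn1g (0.993), Fads3 (0.984) and Gprc5a (0.980), in another order. None of the other 5 members kept any of its 3: Lyve1 was then nearest to Hnrnpu (0.955), Prpf38b (0.947) and Tmcc2 (0.943), and Prox1 to Rassf3 (0.951), Zc2hc1c (0.881) and Lman2l (0.876). Among the members themselves, Lyve1, Prox1 and Flt4 were alike over the 12 libraries (r = 0.813 to 0.890). In deviations from group means Lyve1 and Prox1 had r = 0.00757, Lyve1 and Flt4 0.444, and Prox1 and Flt4 0.491.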

How the data were processed

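Polyadenylated RNA of whole lung was measured in 12 libraries. The authors deposited raw read counts per gene, 1 column per library, with no normalization per the file headers. The submitters' processing notes name featureCounts 1.6.3, HISAT2, Trimmomatic and bcl2fastq 1.8.4, and the genome mm10; options, annotation release and strand setting are not given in the sources used here. Group labels were taken from the sample titles.

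Genes were kept by filterByExpr (minimum count 10, minimum total 15), libraries were scaled by TMM, and 4 group means were fitted with edgeR 4.0.16 (quasi-likelihood, robust, 8 residual degrees of freedom; limma 3.58.1, R 4.3.3). SE is the absolute log2 fold change over the square root of F. Between 3 libraries and 3, an exact permutation test cannot give a p below 0.1 and was not used. Exon lengths and overlaps came from GENCODE M21, in which 91.0% of the file's genes have the same coordinates. Promoter windows came from RefSeq (GRCm38.p6). The naming rule took all 6 members, per list and comparison up to 4 called or else 2 uncalled genes with the smallest p, and 3 nearest genes per member; a selection is printed. Members and the other 15 lists were chosen with earlier results of these data known. Counts in the libraries of a group differed beyond counting noise (chi-square per degree of freedom 9.36 to 46.5). Alternatives were no filter or a mean CPM of at least 1, scaling by RLE, by library totals or by TMM with haemoglobin, mitochondrial and immunoglobulin genes removed, limma-voom and DESeq2 1.42.0 as other tests, a replicate block, a fit of only the groups compared, and each library left out. A clock gene score as covariate was chosen after seeing the data. Figures were drawn with matplotlib 3.10.9.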

Additional observations from a re-analysis of the deposited data

How the results depend on the processing

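Over all alternatives run for single members, 472 values stayed on the same side of the threshold, 32 lost the call and 6 gained it. A reversed direction was counted only where either fit made a call, and 0 values met this. Values called in neither fit could change sign, as Mmrn1 against control did with 1 library left out (-0.03 to 0.10). The calls that changed stand beside each gene, and the cause was not tested. With 1 library left out, the number of members called higher ran from 4 to 5 (lower 0 to 1) in aged against young anti-PD-1 lungs, higher from 1 to 4 against control, lower from 2 to 4 with added anti-IL-21R, and higher 1 to 2 and lower 0 to 1 for the mean of the aged groups. In those fits the calls over all genes ran from 1160 to 2237, 607 to 1995, 260 to 1439 and 1409 to 3725 in that order, against 2830, 2025, 1674 and 2884 with all libraries, and from 0 to 13 between combination and control.

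Without a filter, 0 members were called lower in aged against young lungs (1134 of all genes were) and 0 for the aged mean (1289 of all genes were). DESeq2 called 1 member lower in combination against control, where it called 39 of all genes lower and 37 higher. With added anti-IL-21R it called 2595 of all genes. The clock covariate left 2 members higher and 0 lower in aged against young lungs, 1 higher against control, 1 lower with added anti-IL-21R, and 1 higher and 0 lower for the aged mean, where 607 genes were called.

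Scaling by library totals alone shifted the median of all genes by -0.21 with added anti-IL-21R, where 361 genes were then higher and 2677 lower (866 and 808 under TMM). Against control it gave 1400 and 559 (990 and 1035 under TMM), and for the aged mean 1209 and 1726 (1484 and 1400). Flt4 was then at 13.2 CPM and Mmrn1 at 28.5 in combination lungs. A fit of the aged anti-PD-1 and control groups alone called 881 genes.

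The shared replicate numbers of the labels did not pair the libraries: residuals of same-numbered libraries had a median correlation of -0.012 over 18 pairs (-0.169 to 0.171), and 3 of 12 libraries correlated best with their own number. With a replicate block, Reln was called when anti-IL-21R was added (-0.73, edgeR adjusted p 0.0491), no other member's call changed, and the calls over all genes were 2493, 1702, 1455, 0 and 2703 in the order of the comparisons. Depth limits Prox1 most, at 23 to 157 reads per library.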
